A study of Mus musculus with 2 samples.

Results

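The collagen genes are the genes whose symbol is Col, a number, the letter a and a number, such as Col4a1. Of 55401 genes in the files, 44 carry such a symbol, and all 44 are protein-coding genes in GENCODE M21. The rule uses the symbol only and no measured value. Every one of the 44 had a unique molecular identifier (UMI, 1 counted RNA molecule) in a kept cell of at least 1 library, with 43 found in metastasis and 43 in naive. The members Col6a6, Col19a1 and Col24a1 stayed under 20 UMIs over all kept cells and are given no level.

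The mice were C57BL/6J, aged 10 weeks. The metastasis library pooled 3 brains after intracranial injection of B16/F10-BrM, a line of mouse melanoma cells. The naive library was a pool of 3 brains, and its labels name neither tumour cells nor a sham injection. Both suspensions were freed of myelin and enriched with magnetic beads for ACSA-2, an astrocyte surface antigen, so cell numbers do not measure the makeup of a brain.

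Each group is 1 library, so differences lack a replicate check and are given without a test. All intervals are at 95% and for counting error alone, and every log2 ratio is metastasis over naive. An update to the series swapped the 2 titles, and groups follow the current ones. As a check, UMIs of the melanosome gene Pmel over all barcodes numbered 174742 in metastasis and 4774 in naive. Kept cells numbered 12920 and 13155, with medians of 2814 and 2765 UMIs, and 47 barcodes were kept in both libraries (94 cells, of which 3 were endothelial-, mural- or fibroblast-like). Astrocyte-like cells were 2.51% (metastasis) and 7.70% (naive) of kept cells, against labels that name an enrichment for astrocytes. Cell classes were rebuilt from marker genes without any collagen gene, so no collagen level chose a cell's class.

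Collagens are secreted or membrane proteins in which several alpha chains wind into a helix. Type IV collagen forms the sheet-like network of basement membranes, and in brain it lies around endothelial cells and the pericytes and smooth muscle cells (mural cells) that wrap them. Types I, III and V assemble into fibrils, which in the central nervous system are found mainly in meninges and around larger vessels and are made by fibroblasts. Type VI forms beaded filaments, type VIII hexagonal networks, types IX, XII, XIV and XVI attach to fibrils, types XIII, XVII, XXIII and XXV span the cell membrane, and types XV and XVIII (multiplexins) carry sugar chains and sit in basement membranes.

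Start regions are shown for 4 members picked as examples and not by a ranking: the type IV pair Col4a1 and Col4a2, Col15a1 and Col3a1. The sequences are RefSeq windows of GRCm38.p6, from 250 bases before to 50 bases after the RefSeq start. Each is written 5′ to 3′ on the strand of the gene, with capitals for 3 short motifs found on either strand. The motifs are the CCAAT box, the GC box (spelled GGGCGG) and a TATA box spelled TATAAA.

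Col4a1 lies on the minus strand (window chr8:11312777-11313076) and Col4a2 on the plus strand (chr8:11312555-11312854). Col15a1 (chr4:47207762-47208061) and Col3a1 (chr1:45311288-45311587) lie on the plus strand.
Col4a1: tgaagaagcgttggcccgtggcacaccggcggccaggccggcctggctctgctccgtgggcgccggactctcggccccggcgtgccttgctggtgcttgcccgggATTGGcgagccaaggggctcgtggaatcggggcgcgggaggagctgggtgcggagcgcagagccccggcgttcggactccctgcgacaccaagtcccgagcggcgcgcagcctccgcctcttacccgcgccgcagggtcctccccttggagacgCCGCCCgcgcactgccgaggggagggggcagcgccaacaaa
Col4a2: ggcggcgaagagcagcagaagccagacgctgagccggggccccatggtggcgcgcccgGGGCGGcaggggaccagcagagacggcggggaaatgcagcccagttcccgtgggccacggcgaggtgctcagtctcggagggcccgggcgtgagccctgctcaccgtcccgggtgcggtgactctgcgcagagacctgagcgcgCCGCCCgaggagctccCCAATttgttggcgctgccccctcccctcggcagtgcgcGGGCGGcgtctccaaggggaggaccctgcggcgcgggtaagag
Col15a1: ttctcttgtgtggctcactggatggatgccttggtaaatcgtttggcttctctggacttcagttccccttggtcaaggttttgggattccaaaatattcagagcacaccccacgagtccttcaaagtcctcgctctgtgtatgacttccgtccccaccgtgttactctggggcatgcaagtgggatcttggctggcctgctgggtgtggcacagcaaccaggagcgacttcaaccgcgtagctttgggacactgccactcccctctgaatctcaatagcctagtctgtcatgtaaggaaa
Col3a1: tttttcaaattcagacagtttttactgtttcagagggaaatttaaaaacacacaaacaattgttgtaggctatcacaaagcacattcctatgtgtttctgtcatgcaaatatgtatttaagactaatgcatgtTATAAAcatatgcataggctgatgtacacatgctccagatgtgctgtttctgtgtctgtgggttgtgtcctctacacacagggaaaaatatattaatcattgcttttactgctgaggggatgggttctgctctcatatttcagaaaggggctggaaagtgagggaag

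Col4a1 (8:11198423-11312826 in GENCODE M21) and Col4a2 (8:11312805-11449287) are transcribed away from each other, their RefSeq starts are 21 bases apart, and their windows share 78 bases. The Col4a1 window held 1 CCAAT and 1 GGGCGG, and the Col4a2 window 1 CCAAT and 3 GGGCGG. The Col15a1 window held none of the 3 motifs, and the Col3a1 window held 1 TATAAA. The RefSeq start of Col15a1 lies before the start of the gene in GENCODE M21 (47208161). Over 38 windows of 35 collagen genes, 13 (34.2%) held CCAAT, 23 (60.5%) GGGCGG and 5 (13.2%) TATAAA. Among all 32851 windows the shares were 37.4%, 35.7% and 13.6%. These are matches of letters only.

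Summed over the 44 genes, collagen RNA in kept cells was 615 CPM (UMIs per 1000000 UMIs) in metastasis and 552 CPM in naive, from 41050 and 26594 UMIs. The cells that held it differed. In metastasis, endothelial-like cells held 38.1% of these UMIs and mural-like cells 15.6%, although they were 1.58% and 1.01% of kept cells. The same classes of naive held 1.47% and 1.34% and were 0.874% and 0.745% of cells. Choroid plexus epithelium-like cells held 29.6% and ependymal-like cells 26.9% of collagen UMIs in naive, against 8.43% and 7.13% in metastasis. Endothelial-, mural- and fibroblast-like cells together held 56.6% in metastasis and 5.76% in naive. With every cell weighted alike these shares were 32.3% and 9.20%, and with cells named by their own markers 33.8% and 4.01%. The unnamed cluster 5 (773 and 16 cells), in which all 12 ependymal markers were found and which Ifit3 and Gbp2 led, held a further 4.38% and 0.18%. Clusters 75 and 76, also unnamed, held 2.70% in metastasis and 7.93% in naive, more of naive than endothelial-, mural- and fibroblast-like cells together.

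Per class, the summed level was higher in metastasis in 2 vascular classes and close to equal in most others. In endothelial-like cells the sum was 5579 CPM (5492 to 5667) in metastasis and 1062 CPM (959 to 1172) in naive, with 204 and 115 cells and a log2 ratio of 2.39 (2.25 to 2.54). Mural-like cells had 8348 CPM (8145 to 8555) and 1552 CPM (1395 to 1722), a log2 ratio of 2.43 (2.27 to 2.59) from 131 and 98 cells. These intervals do not overlap between the libraries in either class. From marker levels, free RNA was estimated at 15.5% of mural-like UMIs in metastasis and 82.2% in naive (8.46% and 23.3% in endothelial-like cells). With free RNA subtracted the mural ratio was 1.82. The subtraction held each gene at 0 or above and rescaled the rest, so it need not have removed the full estimate. Fibroblast-like cells had 5038 CPM (4758 to 5331) and 4988 CPM (4646 to 5350), a log2 ratio of 0.01 (-0.12 to 0.15) from 89 and 68 cells. This ratio also depends on the mix of fibroblast-like clusters, given below.

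Olfactory ensheathing-like cells, the glia of the olfactory nerve, had 1617 and 1576 CPM, and choroid plexus epithelium-like cells, which make cerebrospinal fluid, had 1105 and 1089 CPM. Ependymal-like cells, which line the ventricles, had 592 and 550 CPM, with a log2 ratio of 0.11 (0.04 to 0.17). Astrocyte-like cells had 348 and 309 CPM, neuroblast-like cells 386 and 419 CPM, microglia-like cells 343 and 300 CPM, and oligodendrocyte-like cells 122 and 102 CPM. Macrophage or monocyte-like cells had 65.6 and 121 CPM, with a log2 ratio of -0.88 (-1.38 to -0.33). Melanoma-like cells had 79.3 CPM from 678 cells in metastasis, and with 18 cells in naive they were not compared. For reference, free RNA from barcodes with 10 to 100 UMIs held 631 CPM of collagen RNA in metastasis and 590 CPM in naive.

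**Figure D1:**
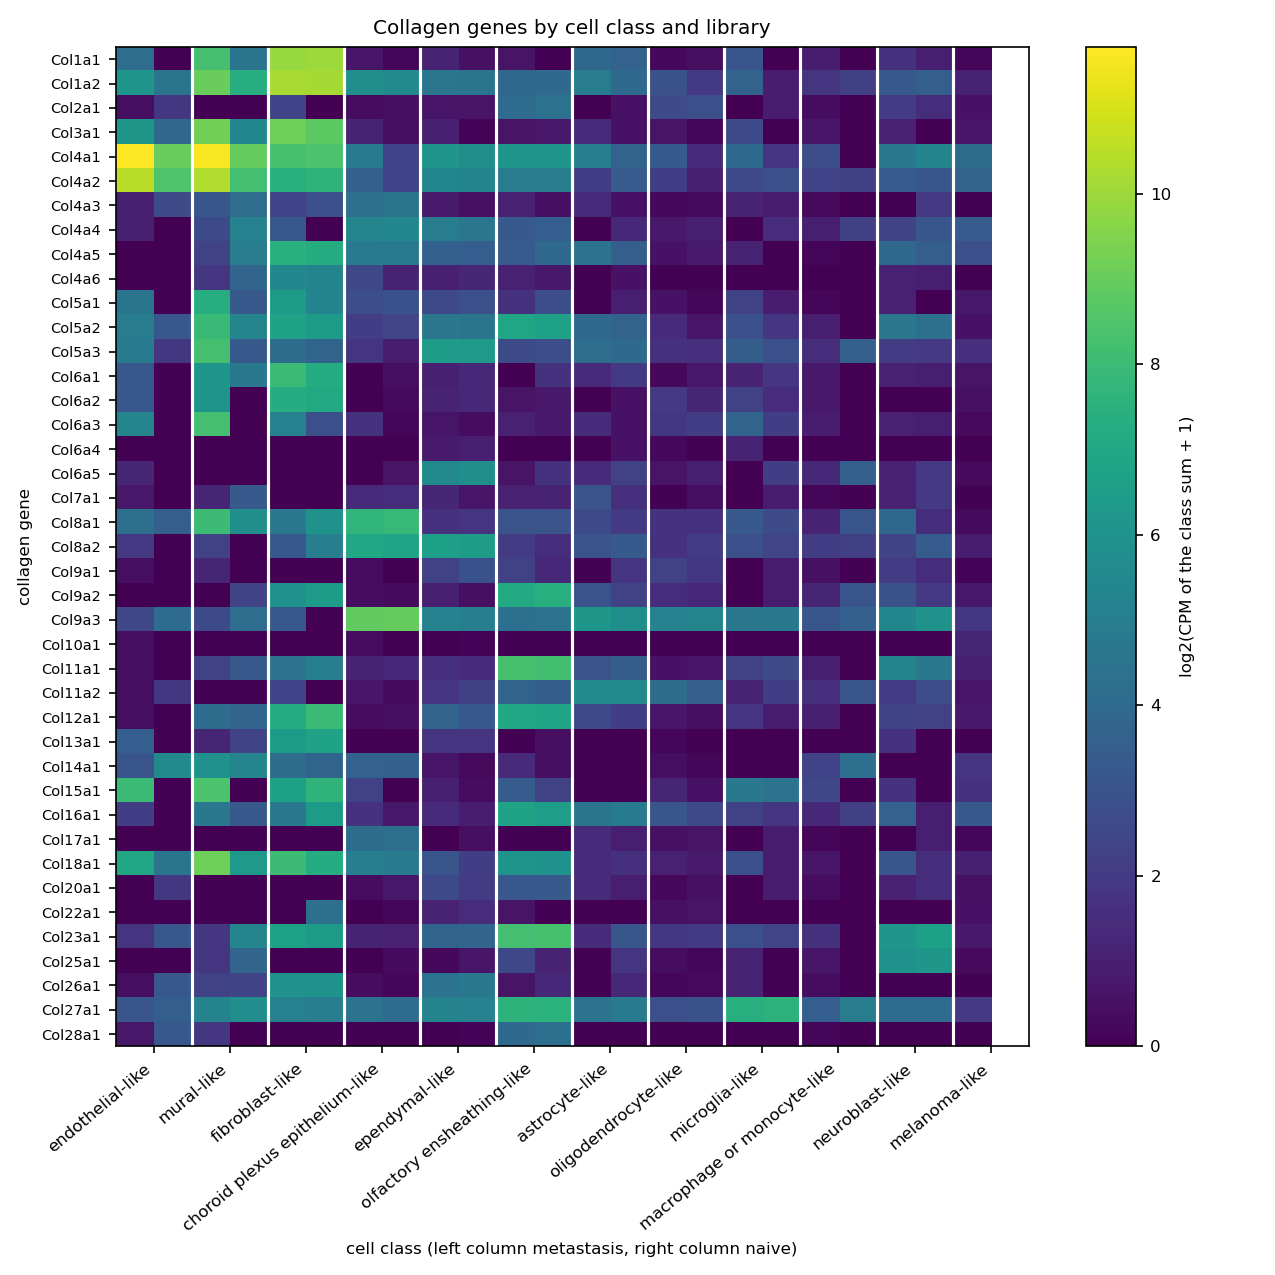
Level of each collagen gene (rows, members with at least 20 UMIs in kept cells) in each cell class (columns, metastasis left and naive right, melanoma-like cells in metastasis only), as log2 of CPM plus 1. Col4a1 and Col4a2 were brightest in endothelial- and mural-like cells of metastasis, Col1a1 and Col1a2 in fibroblast-like cells of both libraries, and Col9a3 in choroid plexus epithelium-like cells of both.

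A member was counted as higher or lower where its CPM differed at least 2-fold and it had at least 20 UMIs over both libraries, a rule of size without a test. In endothelial-like cells 11 of 17 members with enough UMIs were higher in metastasis and 1 was lower. With cells named by their own markers 4 were higher, and without clusters 72, 77 and 80, which naive filled with 1 cell, none was. Over the class as first named, 17.9% of 10030 genes were higher by the same rule and 17.2% lower. The share of all genes was not computed for cells named by their own markers. The median log2 ratio was 1.68 over the members and -0.01 over all those genes. In mural-like cells 15 of 17 members were higher and none lower, where 22.3% of 7029 genes were higher and 15.2% lower, and the medians were 2.64 and 0.13. In fibroblast-like cells 1 of 17 was higher and none lower, with 7.86% and 3.42% of 3714 genes and medians of 0.03 and 0.07. A member that was nearly absent from naive could reach 20 UMIs only through metastasis.

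The basement membrane chains Col4a1 and Col4a2 were the most abundant collagen RNAs of both vascular classes. In endothelial-like cells Col4a1 had 9480 UMIs in metastasis and 190 in naive, or 3384 CPM (3316 to 3453) and 516 CPM (445 to 595), with a log2 ratio of 2.71 (2.51 to 2.93). Col4a2 had 4076 and 131 UMIs there, or 1455 CPM and 356 CPM, a log2 ratio of 2.03 (1.78 to 2.29). The pair was therefore high in both libraries and higher in metastasis.

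In mural-like cells Col4a1 had 2419 and 115 UMIs, or 3156 CPM and 501 CPM (log2 ratio 2.65, 2.38 to 2.94). Col4a2 had 987 and 69 UMIs there, or 1288 CPM and 301 CPM (2.10, 1.74 to 2.47). In fibroblast-like cells the levels lay close together, at 317 and 336 CPM for Col4a1 and 171 and 197 CPM for Col4a2. These class levels also depend on the mix of clusters 74 and 81, both with more Col4a1 in metastasis (given below). The other type IV chains, which build the membranes of specialised epithelia, had few UMIs in vascular cells. In mural-like cells Col4a4 had 4 and 8 UMIs (5.22 and 34.9 CPM), Col4a5 3 and 7 (3.91 and 30.5 CPM), Col4a3 6 and 4 (7.83 and 17.4 CPM) and Col4a6 2 and 3. Col4a5 was highest in fibroblast-like cells (175 and 152 CPM), and Col4a3 (18.8 and 21.7 CPM) and Col4a4 (39.9 and 42.5 CPM) in choroid plexus epithelium-like cells.

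Col15a1, a multiplexin of vessel and muscle basement membranes, had 700 UMIs (250 CPM) in endothelial-like cells of metastasis and 0 in naive. With that 0 set to a floor of 3 UMIs over the class it was 30.7-fold higher. Folds against this floor are not lower bounds. In mural-like cells Col15a1 had 255 UMIs (333 CPM) and 0, or 25.4-fold higher against the floor. Fibroblast-like cells held Col15a1 in both libraries, at 24 UMIs (100 CPM) and 31 UMIs (197 CPM), with the log2 ratio at -0.97 (-1.80 to -0.16). Col15a1 RNA was thus found in naive fibroblast-like cells and in no naive vascular cell of these classes. The floor of 3 UMIs is 8.15 CPM over the 368225 endothelial-like UMIs of naive.

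Col18a1, the gene that also encodes endostatin, had 362 and 8 UMIs in endothelial-like cells, or 129 and 21.7 CPM (log2 ratio 2.57, 1.58 to 3.80). In mural-like cells it had 429 and 18 UMIs, or 560 and 78.5 CPM (2.83, 2.16 to 3.60). In fibroblast-like cells it had 259 and 152 CPM (0.77, 0.07 to 1.51), under 2-fold.

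**Figure D2:**
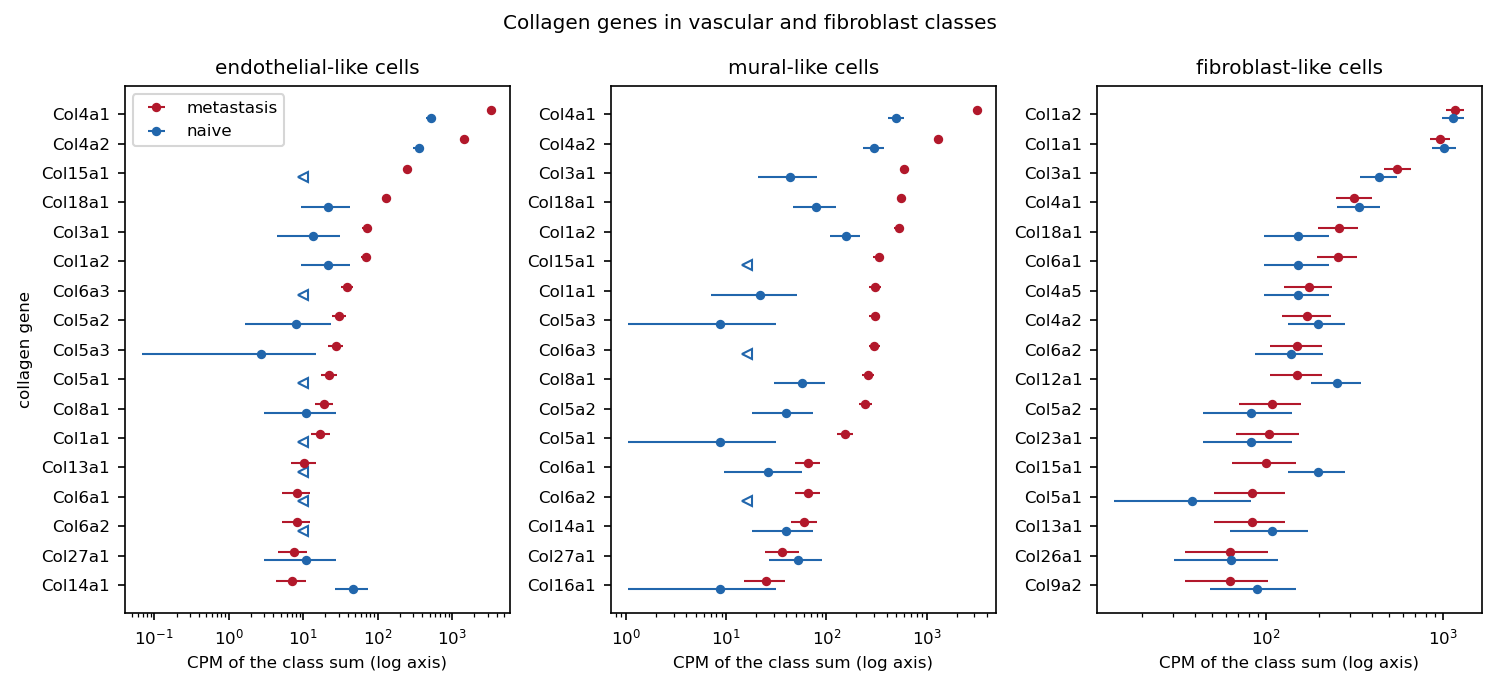
CPM of each collagen gene with at least 20 UMIs in endothelial-, mural- and fibroblast-like cells (log axes), metastasis in red and naive in blue, with 95% Poisson intervals. An open triangle marks the upper bound of a sum of 0. Col4a1, at 3384 and 516 CPM in endothelial-like cells, leads the left panel, and in the right panel the libraries lie close together.

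The fibril-forming chains of type I were highest in fibroblast-like cells, in both libraries. The others had other top classes: in metastasis Col3a1 and the 3 type V chains were highest in mural-like cells, and Col11a1 and Col27a1 in olfactory ensheathing-like cells. Col1a2 led in fibroblast-like cells, with 1174 CPM (metastasis) and 1149 CPM (naive), Col1a1 969 and 1022 CPM, and Col3a1 556 and 438 CPM. None of these differed 2-fold. Col5a1, a minor chain that sets fibril width, was the one member counted as higher, at 83.5 and 38.1 CPM from 20 and 6 UMIs, and its interval spans 0 (log2 ratio 1.13, -0.23 to 2.74). Col12a1, which binds fibril surfaces, had 150 and 254 CPM (-0.76, -1.45 to -0.07). That ratio also depends on the mix of fibroblast-like clusters, within each of which the Col12a1 levels lay closer together (given below).

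In mural-like cells every fibril-forming chain of types I, III and V was higher in metastasis. Col3a1 had 454 and 10 UMIs, or 592 CPM and 43.6 CPM (log2 ratio 3.76, 2.87 to 4.83). Col1a1 had 235 and 5 UMIs, or 307 and 21.8 CPM (3.81, 2.57 to 5.45), and Col1a2 405 and 36 UMIs, or 528 and 157 CPM (1.75, 1.26 to 2.29). The type V chains followed, with log2 ratios of 4.15 for Col5a1, 2.64 for Col5a2 and 5.13 for Col5a3, the last from 234 and 2 UMIs.

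Beaded filament chains of type VI were higher in mural-like cells as well. Col6a3, its longest chain, had 231 UMIs (301 CPM) in metastasis and 0 in naive, or 23.0-fold higher against the floor of 3 UMIs. Col6a2 had 50 UMIs and 0, or 4.99-fold higher against that floor, and Col6a1 50 and 6 UMIs (log2 ratio 1.32, 0.10 to 2.83). Col8a1, a network collagen of vessel walls, had 200 and 13 UMIs, or 261 and 56.7 CPM (2.20, 1.40 to 3.14). Col16a1 passed 2-fold with 19 and 2 UMIs, and its interval spans 0 (1.51, -0.54 to 4.65). Col14a1 (60.0 and 39.2 CPM) and Col27a1 (36.5 and 52.3 CPM) lay under 2-fold.

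In endothelial-like cells the same chains were at lower levels. Col3a1 had 72.1 and 13.6 CPM (2.41, 1.16 to 4.05), Col1a2 69.6 and 21.7 CPM (1.68, 0.67 to 2.91), Col5a2 30.7 and 8.15 CPM (1.91, 0.32 to 4.22) and Col5a3 27.5 and 2.72 CPM (3.34, 0.82 to 8.66). Col6a3, Col5a1 and Col1a1 had 110, 63 and 48 UMIs in metastasis and 0 in naive. Against the floor of 3 UMIs they were 4.82-, 2.76- and 2.10-fold higher. Free RNA of the metastasis library held 35.0 CPM of Col1a2, 15.6 of Col5a2 and 23.4 of Col5a3, near or below these class levels. It was estimated at 8.46% of endothelial-like UMIs in metastasis. The part of free RNA was not tested beyond its subtraction, which did not reverse the ratios of these genes. Col14a1, a fibril-associated collagen, was the only lower member, with 20 and 17 UMIs, or 7.14 and 46.2 CPM (-2.69, -3.70 to -1.67).

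Different clusters held most of each vascular class in the libraries, which bears on all of these values. Endothelial-like cells comprised clusters 71 and 82 (49 cells in metastasis, 114 in naive), led by Slco1a4, Ly6c1 and Cldn5, genes of the blood-brain barrier. Cluster 82 (6 and 15 cells) also held mural markers, at 9908 and 14091 CPM against 279 and 320 CPM in cluster 71. Endothelial-like cells also comprised cluster 72 (122 and 1 cells) and cluster 77 (33 and 0), led by Igfbp3 and, in cluster 72, Plvap, a gene of fenestrated endothelium. Mural-like cells comprised cluster 79 (36 and 54), led by the pericyte genes Atp13a5 and Kcnj8, cluster 73 (14 and 44), led by the smooth muscle gene Myh11, and cluster 80 (81 and 0), led by Anxa1 and Cd248 with the chemokine genes Cxcl1 and Ccl2 among its first 10. Haemoglobin genes were among the first 10 genes of clusters 71 and 79, and the 7 genes of the erythroid list summed to 1379 and 21177 CPM in endothelial-like cells, 33.9 and 12964 CPM in mural-like cells and 170 and 34641 CPM in cluster 79. Clusters 72 and 80 were deep, with medians of 15246 and 8368 UMIs per cell in metastasis.

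Markers of the classes and of other cells moved with these libraries too. All 14 endothelial markers were found in endothelial-like cells of metastasis and 13 in naive, and they summed to 9472 and 23374 CPM (8606 CPM in cluster 72). All 14 mural markers were found in mural-like cells of both, at 20450 and 28684 CPM. The fibroblast list summed to 240 CPM (9 of 14 genes found) and 384 CPM (10 of 14) in mural-like cells, where fibroblast-like cells had 14984 and 14026 CPM. The melanoma list summed to 305 CPM (11 of 11) and 32.6 CPM (4 of 11) in endothelial-like cells, to 291 CPM (10 of 11) and 61.0 CPM (4 of 11) in mural-like cells, and to 460 CPM (8 of 11) and 57.1 CPM (5 of 11) in fibroblast-like cells. Macrophage or monocyte markers summed to 112 CPM (10 of 13) and 38.0 CPM (4 of 13) in endothelial-like cells and to 163 CPM (8 of 13) and 43.6 CPM (2 of 13) in mural-like cells. Choroid plexus epithelium markers summed to 3940 and 12321 CPM in endothelial-like, 4241 and 21909 CPM in mural-like and 7524 and 18163 CPM in fibroblast-like cells, with at least 10 of 12 found in each. Microglia markers summed to 5293 CPM (12 of 12) and 2317 CPM (10 of 12) in endothelial-like and to 3817 CPM (11 of 12) and 1378 CPM (12 of 12) in mural-like cells. The microglia list includes Sparc, a basement membrane gene also followed below, so this sum cannot be read as microglial RNA alone. Melanoma-like cells themselves had 16.6 CPM of Col4a1, far under the vascular levels, and the part of the other cells in the collagen levels was not tested.

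Collagen RNA was high in the clusters that metastasis filled almost alone. Its summed level was 5963 CPM in cluster 72, 2436 CPM in cluster 77 and 9114 CPM in cluster 80. In clusters 71 and 82, which both libraries filled, it was 904 CPM (769 to 1055) in metastasis and 1052 CPM (950 to 1163) in naive, for a log2 ratio of -0.22 (-0.50 to 0.05). Cluster 71 alone had 830 CPM (685 to 995) and 935 CPM (827 to 1054). In both clusters together Col4a1 had 452 and 510 CPM, Col4a2 316 and 352 CPM, and Col14a1 45.2 and 46.3 CPM. None of 3 members with enough UMIs differed 2-fold, where 2.97% of 4911 genes were higher and 4.13% lower.

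In cluster 79 the summed level was 2300 CPM (1887 to 2777) and 1642 CPM (1381 to 1937), a log2 ratio of 0.49 (0.11 to 0.86). Of 4 members with enough UMIs, Col4a1 was higher, with 54 and 41 UMIs, or 1150 and 481 CPM (1.26, 0.65 to 1.88), where 6.28% of 1114 genes were higher and 6.19% lower. Cluster 73 had 1288 and 1499 CPM. With clusters 72, 77 and 80 left out, an alternative added after the data were seen, the summed log2 ratio was -0.22 in endothelial-like and 0.27 in mural-like cells, and 0 and 1 members were higher in place of 11 and 15.

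**Figure D3:**
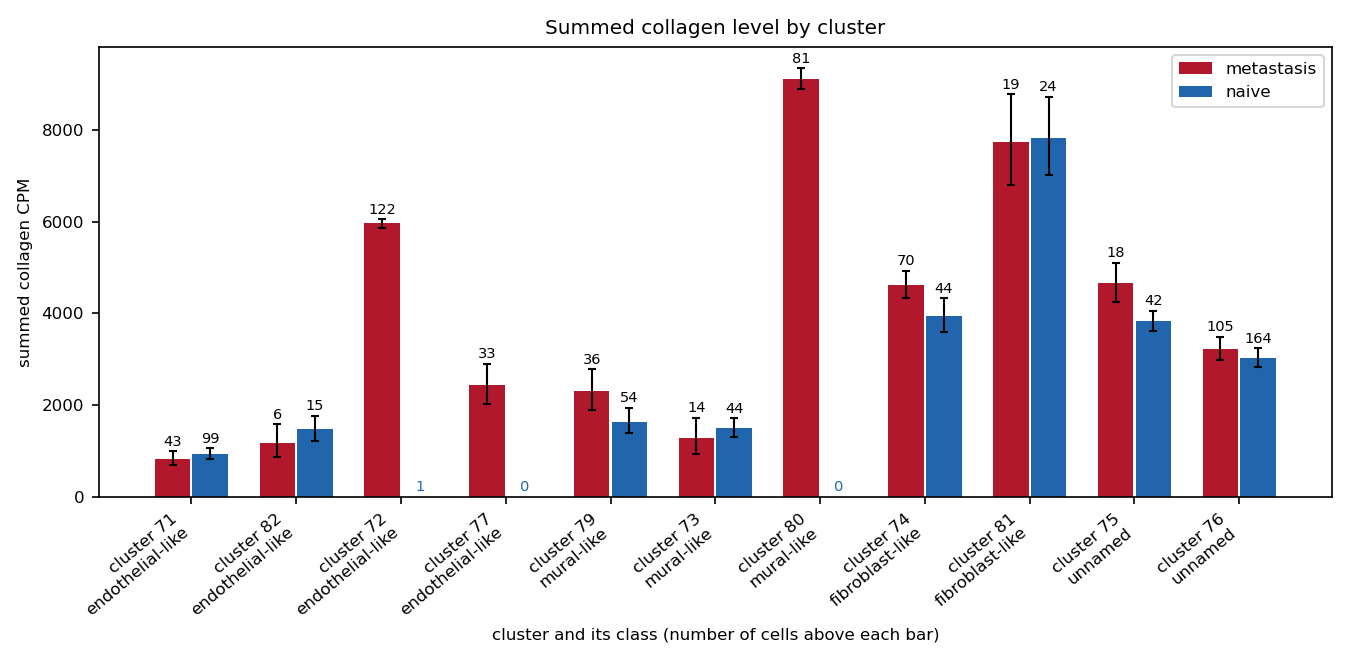
Summed collagen CPM (bars, with 95% Poisson intervals) of each endothelial-, mural- and fibroblast-like cluster and of the unnamed clusters 75 and 76, metastasis in red and naive in blue, with the number of cells above each bar; levels of clusters with under 5 cells are not drawn. Clusters 72 and 80, at 5963 and 9114 CPM, were filled by metastasis, and the clusters that both libraries filled have paired bars that mostly differ little, with cluster 79 at 2300 and 1642 CPM.

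Within cluster 72 the collagen genes fell into unlike groups when set beside cluster 80. Col4a1 stood at 106% of the level of cluster 80 (3627 and 3431 CPM), Col4a2 at 111%, Col15a1 at 72.9% and Col18a1 at 22.4%. The chains of types I, III, V and VI stood at 5.24% (Col1a1) to 14.2% (Col5a1). The 14 mural marker genes, summed, stood at 10.6% (1975 and 18647 CPM), and the mural genes Rgs5, Acta2 and Pdgfrb at 12.2%, 8.59% and 12.8%. The part of mural RNA in the fibril-forming levels of cluster 72 was not tested.

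Cells of these clusters differed in how evenly they held each chain. Col4a1 was found in 122 of 122 cells of cluster 72, and the highest cell held 3.14% of its 9335 UMIs. Col15a1 was found in 82 of 122 cells there and in 63 of 81 cells of cluster 80. Col3a1 was found in 72 of 81 cells of cluster 80, and the highest cell held 12.7%. Col1a1 was uneven. Only 21 of 81 cells of cluster 80 held it, 1 cell held 24.8% of its 234 UMIs, and 5 cells held 70.1%. In cluster 72 it was found in 12 of 122 cells, and 1 cell held 43.5% of 46 UMIs.

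Fibroblast-like cells comprised cluster 74 (70 and 44 cells), led by Dcn and Lum, and cluster 81 (19 and 24), led by Slc6a13 and Itih5. Cluster 81 had the higher summed level, 7743 and 7832 CPM against 4628 and 3946 CPM in cluster 74. The log2 ratio was 0.23 (0.07 to 0.39) in cluster 74 and -0.02 (-0.26 to 0.23) in cluster 81. Cluster 81 held 31512 of 239381 UMIs of the class in metastasis and 42264 of 157570 in naive. Class levels therefore also depend on the mix of clusters, above all for genes with a higher level in cluster 81. Its Col4a1 was 1015 and 781 CPM, where cluster 74 had 212 and 173 CPM, and its Col12a1 was 730 and 804 CPM against 62.5 and 52.0 CPM. In cluster 74, 2 of 15 members were higher in metastasis, where 9.57% of 3019 genes were higher and 3.18% lower. They were Col18a1 (250 and 104 CPM, log2 ratio 1.27, 0.34 to 2.31) and Col5a1 (96.2 and 34.7 CPM, from 20 and 4 UMIs).

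Clusters 75 and 76 matched no marker list and were led by Ccn3 and Slc47a1. They were rich in collagen RNA in both libraries, with 3717 CPM from 123 cells in metastasis and 3436 CPM from 206 cells in naive. Col1a2 (872 and 727 CPM) led, followed by Col6a1 (610 and 562 CPM), Col6a2 (446 and 406 CPM) and Col12a1 (362 and 380 CPM). The transmembrane collagens Col25a1 (272 and 233 CPM) and Col23a1 (204 and 288 CPM) were higher here than in vascular or fibroblast-like cells. None of 14 members differed 2-fold, where 3% of 6805 genes were higher and 4.51% lower.

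Choroid plexus epithelium-like cells had a makeup of their own. Col9a3, a chain of fibril-associated type IX, had 1474 UMIs (470 CPM) in metastasis and 3589 UMIs (496 CPM) in naive, followed by the network chains Col8a1 (209 and 232 CPM) and Col8a2 (126 and 116 CPM), Col1a2 (56.8 and 48.6 CPM) and Col4a4 (39.9 and 42.5 CPM). Col17a1, a hemidesmosome collagen, had 16.9 and 17.8 CPM and was lower in each other compared class. Of 16 members 3 were higher in metastasis, where 2.95% of 11924 genes were higher and 1.15% lower: Col4a1, Col4a2 and Col4a6.

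Those 3 rest on few cells or few UMIs. Col4a1 had 89 and 30 UMIs (28.4 and 4.15 CPM, log2 ratio 2.78, 2.16 to 3.42), and 1 cell held 49.4% of the metastasis UMIs. Without cells under 2000 UMIs its log2 ratio was -0.10, and with at most 10% mitochondrial UMIs it was -0.21. Col4a2 had 35 and 30 UMIs (1.43, 0.68 to 2.18), with 28.6% of the metastasis UMIs in 1 cell, and Col4a6 had 15 and 9 UMIs (1.94, 0.66 to 3.32).

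In olfactory ensheathing-like cells the leading members were alike in both libraries. Free RNA was estimated at 77.4% of the UMIs of this class in metastasis and 67.8% in naive. Col11a1, a fibril-forming chain of cartilage and nerve, had 588 and 759 UMIs, or 320 and 290 CPM. Col23a1 had 301 and 312 CPM, Col27a1 187 and 177 CPM, Col9a2 143 and 162 CPM, Col12a1 129 and 114 CPM, Col5a2 118 and 103 CPM and Col16a1 109 and 93.7 CPM. Of 22 members, Col15a1 was higher (18 and 10 UMIs, log2 ratio 1.35, 0.16 to 2.63) and Col5a1 lower (4 and 16 UMIs, -1.49, -3.53 to 0.14), where 2.54% of 11463 genes were higher and 1.21% lower.

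Ependymal-like cells were led by Col8a2 (96.1 and 88.2 CPM), Col5a3 (85.8 and 79.6 CPM), Col4a1 (67.4 and 54.3 CPM) and Col6a5 (47.4 and 56.3 CPM), followed by Col4a2 (41.3 and 38.2 CPM), Col27a1 (37.0 and 35.4 CPM) and Col26a1 (21.3 and 24.7 CPM). Of 27 members only Col18a1 was higher, with 36 and 45 UMIs, or 7.29 and 3.46 CPM (1.08, 0.40 to 1.74), where 2.84% of 15843 genes were higher and 1.56% lower. In microglia-like cells Col27a1 led with 167 and 186 CPM, and none of 3 members differed 2-fold (2.47% of 9033 genes were higher and 2.15% lower). In neuroblast-like cells Col23a1 (68.3 and 97.3 CPM) and Col25a1 (61.8 and 72.3 CPM) led, and none of 8 differed 2-fold (3.2% and 3.54% of 10213 genes).

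Astrocyte-like cells had Col9a3 at 73 and 56.4 CPM and Col11a2 at 46.9 and 47.5 CPM. Free RNA held more Col9a3 than these cells, at 113 and 269 CPM. Of 13 members Col4a1 was higher (18 and 25 UMIs, log2 ratio 1.34, 0.38 to 2.27) and Col4a2 lower (2 and 19 UMIs, -1.44, -4.58 to 0.62), where 2.33% of 10382 genes were higher and 3.44% lower. With free RNA subtracted the Col4a1 ratio was -0.67. The Col4a2 ratio was 1.51 with at least 2000 UMIs, 0.76 with doublets kept and 0.0040 with cells named by their own markers.

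Oligodendrocyte-like cells, which make myelin, held little collagen RNA besides Col9a3 (35.4 and 39.0 CPM) and Col11a2 (16.5 and 10.6 CPM). Of 22 members 6 were higher in metastasis, where 4.68% of 15006 genes were higher and 1.33% lower. They were Col4a1 (9.04 and 1.62 CPM, log2 ratio 2.48, 1.90 to 3.11), Col4a2 (1.72), Col1a2 (1.12), Col6a2 (1.05), Col5a2 (1.49) and Col15a1 (1.36). Free RNA held more Col4a1 in metastasis, 156 CPM against 11.1 CPM in naive (78.5 and 13.9 CPM in barcodes with 100 to 300 UMIs), and more of Col4a2 (42.8 and 7.37 CPM). The part of free RNA in these levels was not tested beyond its subtraction, after which the log2 ratios of Col5a2 and Col15a1 were -1.75 and -1.46. The subtracted pools held 256869 and 271390 UMIs, with Col5a2 at 15.6 and 0 CPM and Col15a1 at 23.4 and 0 CPM. Those reversals therefore rest on few molecules. Barcodes with 100 to 300 UMIs held 9.63 and 6.55 CPM of Col5a2 and 7.80 and 1.12 CPM of Col15a1.

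**Figure D4:**
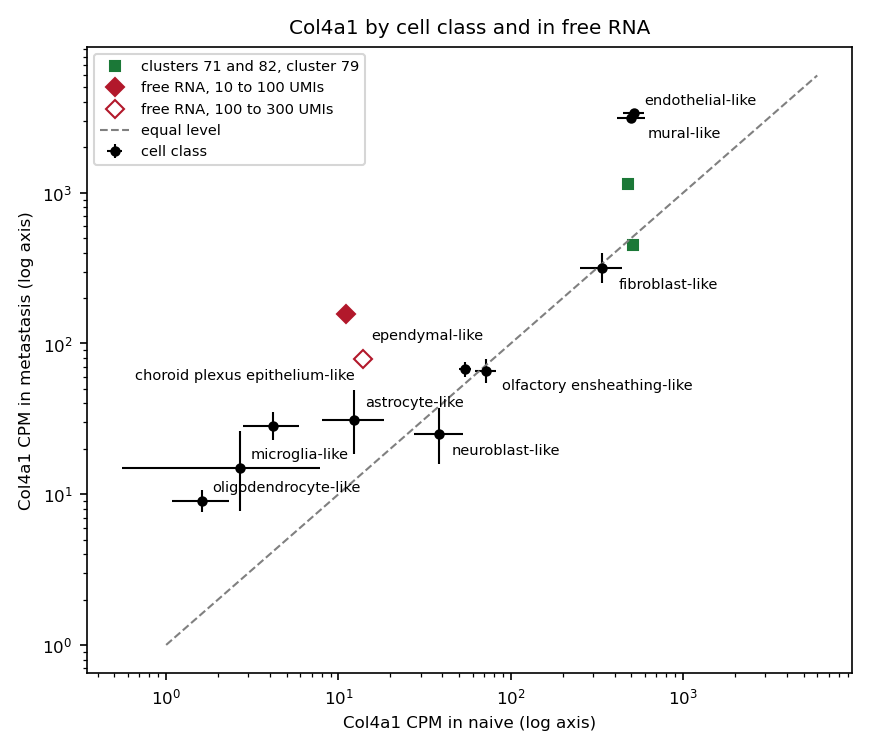
Col4a1 CPM in metastasis against naive on log axes, for each compared cell class with a UMI in both libraries (black, with 95% Poisson intervals), for clusters 71 and 82 and cluster 79 (green) and for free RNA (red). Endothelial- and mural-like cells lie above the line of equal level, as does free RNA at 156 and 11.1 CPM, and the lower green square (clusters 71 and 82, 452 and 510 CPM) lies close to it.

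Macrophage or monocyte-like cells had the lowest collagen level in metastasis, and 4 of 11 members were lower there and none higher, where 14.5% of 12176 genes were lower and 6.53% higher. They were Col27a1 (10.2 and 29.2 CPM, -1.52, -2.55 to -0.26), Col14a1 (-2.16, -3.51 to -0.46), Col11a2 (-1.84, -3.89 to 1.31) and Col5a3 (-2.50, -4.28 to -0.10). Their naive sums held 8, 5, 2 and 3 UMIs from 95 cells, against 1692 cells in metastasis. Melanoma-like cells had Col4a1 at 16.6 CPM, Col4a2 at 12.5, Col4a4 at 9.43 and Col16a1 at 8.62 CPM. Of 32 Col10a1 UMIs in kept cells of metastasis, 28 were in melanoma-like cells.

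In T or NK-like and neuron-like cells no member had 20 UMIs. In the unnamed cluster 78 (76 and 48 cells), led by Klk6 and Ugt8a, 3 of 8 members were higher, where 6.44% of 4393 genes were higher and 2.25% lower: Col1a1 (138 and 58.0 CPM), Col1a2 (256 and 126 CPM) and Col6a1 (94.5 and 26.3 CPM). In the unnamed cluster 27 (72 and 145 cells) Col8a1 was lower, with 2 and 23 UMIs, where 4.06% of 3870 genes were lower and 3.49% higher. Over all classes and unnamed clusters with enough cells, 16 of the 44 members were higher in at least 1 and 7 were lower in at least 1, and 4 of these were both. A gene with enough UMIs in more classes has more chances to be counted. The matching share over all genes was not computed, so these counts do not set collagens apart. Of 30 members with at least 20 UMIs in their top class in both libraries, 22 had the same top class in each. Mural-like cells were the top class of 9 members in metastasis and of none in naive, where fibroblast-like cells led for 9. Col3a1, for example, was highest in mural-like cells of metastasis (592 CPM) and in fibroblast-like cells of naive (438 CPM). Top classes were not computed over all genes, so these counts do not set collagens apart either.

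Grouped by structure, the largest family was the same in both libraries for endothelial-, mural- and fibroblast-like cells, while smaller families differed in the vascular classes. Basement membrane chains made up 86.8% of collagen UMIs in endothelial-like cells of metastasis (86.2 to 87.3%) and 82.6% in naive (78.5 to 86.2%). They made up 53.5% and 57.9% in mural-like cells, where fibril-forming chains made up 26.0% and 21.9%. In endothelial-like cells multiplexins made up 6.80% and 2.05% and fibril-associated chains 0.288% and 6.14%. In mural-like cells multiplexins made up 10.7% and 5.06%, fibril-associated chains 1.30% and 5.34% and transmembrane collagens 0.0781% and 3.65%, and in each of these pairs the intervals do not overlap. Cluster 80 held 53.1% basement membrane, 26.2% fibril-forming and 10.9% multiplexin chains. Fibroblast-like cells held 59.0% and 56.2% fibril-forming chains. Beaded filament chains reached 28.8% and 28.6% in clusters 75 and 76. Fibril-associated chains made up 44.0% and 46.9% and network chains 30.4% and 32.0% in choroid plexus epithelium-like cells. Transmembrane collagens made up 18.9% and 19.9% in olfactory ensheathing-like cells and 34.3% and 40.7% in neuroblast-like cells.

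**Figure D5:**
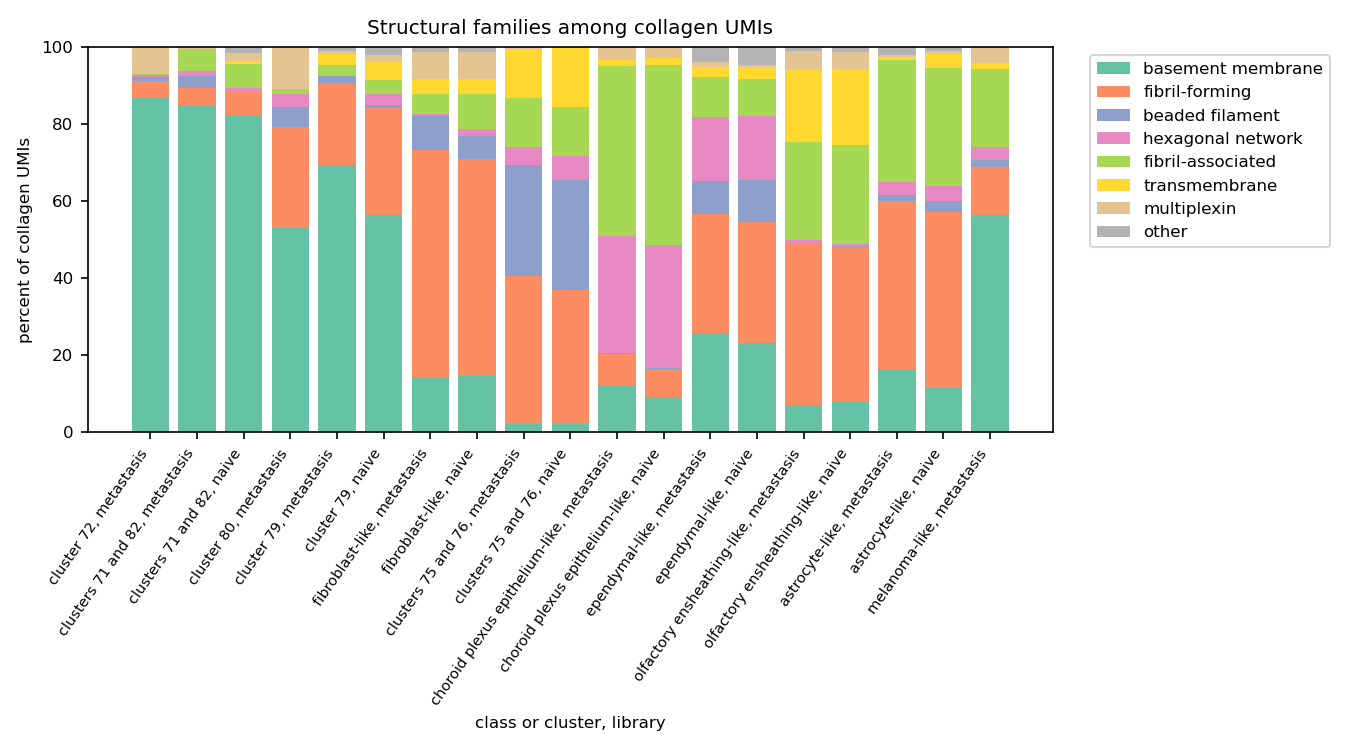
Percent of collagen UMIs in each structural family (stacked colours) for clusters and cell classes in each library. Basement membrane chains fill 86.9% of cluster 72 and 53.1% of cluster 80, fibril-forming chains 59.0% of fibroblast-like cells in metastasis.

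Chains of 1 helix were not counted in a fixed ratio. The type IV molecule of vessels joins more alpha 1 than alpha 2 chains. UMIs of Col4a1 over Col4a2 were 2.33 (2.24 to 2.41) in endothelial-like cells of metastasis and 1.45 (1.15 to 1.83) in naive. In mural-like cells the ratios were 2.45 (2.28 to 2.64) and 1.67 (1.23 to 2.28). Clusters 71 and 82 had 1.43 and 1.45, and cluster 72 had 2.34. Cluster 80 had 2.46, cluster 79 had 3.00 (1.73 to 5.44) and 1.78 (1.04 to 3.11), and olfactory ensheathing-like cells had 2.24 and 2.46.

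For type I, Col1a1 over Col1a2 was 0.83 and 0.89 in fibroblast-like cells, 0.58 and 0.14 in mural-like cells and 0.25 and 0.28 in clusters 75 and 76. In choroid plexus epithelium-like cells Col1a2 was nearly alone, with 178 and 351 UMIs against 2 and 1 of Col1a1. For type VI, Col6a3 over Col6a1 was 4.62 (3.39 to 6.40) in mural-like cells of metastasis, against 0.13 in fibroblast-like cells and 0.02 in clusters 75 and 76 of the same library. For type IX, choroid plexus epithelium-like cells held Col9a3 (1474 and 3589 UMIs) with 1 and 0 UMIs of Col9a1 and 1 and 2 of Col9a2. In olfactory ensheathing-like cells Col9a2 was the main chain, and Col9a3 over Col9a2 was 0.13 in each library. Counts are of 3′ ends and are not divided by length, so a ratio of chains also depends on how each end is primed.

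The share of cells with a collagen UMI was compared after thinning each cell to 1000 UMIs. With any collagen counted, it was 85.3% (79.7 to 89.9%) of endothelial-like cells for metastasis and 61.7% (52.2 to 70.6%) for naive, and 93.9% and 77.6% of mural-like cells. Unthinned shares were 91.7% and 87.0%, and 95.4% and 90.8%. Fibroblast-like cells had 96.6% and 97.1%. Col4a1 was found in 72.5% and 36.5% of thinned endothelial-like cells (84.8% and 70.4% unthinned), with medians of 5873 and 2425 UMIs before thinning. It was found in 93.4% of cluster 72, in 86.4% of cluster 80, and in 38.8% and 36.0% of clusters 71 and 82. Oligodendrocyte-like cells, taken as background, had 1.07% and 0.111% thinned and 2.77% and 0.538% unthinned, at medians of 2737 and 2969 UMIs.

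Genes that fold, modify or accompany collagens were followed in 6 lists of 72 genes. In endothelial-like cells 7 of 18 chaperones and modifying enzymes with enough UMIs were higher and 1 lower, where 17.9% of all genes were higher and 17.2% lower. The median log2 ratio was 0.81 over this list and -0.01 over all genes. Serpinh1, the collagen chaperone HSP47, had 3543 and 88 UMIs, or 1265 and 239 CPM (log2 ratio 2.40, 2.10 to 2.73), Fkbp10, a prolyl isomerase, had a log2 ratio of 4.34 (2.47 to 7.39) and P3h3 1.62, while P4ha2, a prolyl hydroxylase subunit, was lower (-2.01, -3.26 to -0.66). The cross-linking enzyme Loxl2, the only one of its list with enough UMIs, was higher (3.75, from 102 and 1 UMIs). Of 3 propeptide proteases and enhancers, Bmp1 and Pcolce were higher and Pcolce2 lower. Of 6 receptors, Itga2 was higher, and Ddr1 and Adgrg1 were lower. Of 6 proteoglycans and glycoproteins, Bgn and Postn were higher.

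Among 13 other basement membrane genes of endothelial-like cells, 7 were higher and 3 lower, with a median of 1.23, and the 3 lower are near the 17.2% of all genes. The laminin chain Lamb1 had 746 and 4 UMIs, or 266 and 10.9 CPM (4.62, 3.25 to 6.50), and the linker proteins Nid2 and Nid1 had log2 ratios of 2.69 and 2.27. Lamb2, the alternative laminin beta chain, went the other way, with 27.1 and 128 CPM (-2.23, -2.78 to -1.68), as did Lama2 (-1.51) and Agrn (-1.09). In clusters 71 and 82 none of the genes with enough UMIs differed 2-fold, in any of the lists that had one (10 chaperones, 3 receptors, 8 basement membrane genes and 2 proteoglycans).

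In mural-like cells 10 of 16 chaperones and modifying enzymes were higher and 1 lower, where 22.3% of all genes were higher and 15.2% lower. The median log2 ratio was 1.35 over this list and 0.13 over all genes, with 1.5 over proteoglycans and glycoproteins and 0.40 over other basement membrane genes. Serpinh1 had 1877 and 296 CPM (2.66, 2.31 to 3.04), Fkbp10 2.86 and P3h3 2.51, and P3h4 was lower (-1.30). All 3 propeptide proteases and enhancers with enough UMIs were higher, led by Adamts2 (4.33, from 67 and 1 UMIs). Loxl2 (2.94) was higher, as were 7 of 9 proteoglycans and glycoproteins, among them Fbn1 (4.07), Postn (3.60) and Fn1 (1.94), and Dcn was lower (-1.74). Of 11 basement membrane genes, Nid2, Lamb1, Sparc and Nid1 were higher (3.35, 2.31, 1.94 and 1.26) and Lamb2 lower (-2.30). Of 5 receptors, Ddr2 was higher (1.22).

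In fibroblast-like cells, where 7.86% of all genes were higher and 3.42% lower, 1 of 13 chaperones was higher (Plod3, 1.40), 1 of 3 cross-linking enzymes (Loxl1, 1.16), 1 of 10 other basement membrane genes (Lama4, 1.40) and 2 of 9 proteoglycans and glycoproteins. The last were Fn1 (397 and 102 CPM, 1.97, 1.19 to 2.83) and Fbn1 (1.69). Fmod, a fibril-binding proteoglycan, was lower, at 167 and 463 CPM (-1.47, -2.07 to -0.90). Here the 2 libraries differed in fibronectin and fibrillin RNA while Col1a1, Col1a2 and Col3a1 stayed under 2-fold.

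Across 36 sums of a class or cluster in a library, the genes that were not collagens and whose levels lay closest to each of 3 members were listed by Pearson correlation of log2(CPM + 10). For Col4a1 these were Hspg2 (0.88), Ehd2 (0.87), Igfbp7 (0.86), Lamc1 (0.86) and Cd248 (0.86), and the correlation with Col4a2 was 0.92. For Col1a1 they were Tbx18 (0.92), Twist1 (0.91), Cped1 (0.90), Clmp (0.89) and Fhl2 (0.89), with 0.95 for Col3a1 and 0.93 for Col1a2. For Col9a3 they were Tmem72 (0.87), D630024D03Rik (0.85), Sostdc1 (0.85), Frmpd1os (0.85) and F5 (0.83), with 0.75 for Col17a1. The points share libraries and differ in depth, so these values describe likeness only.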

How the data were processed

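The deposited files hold raw UMI counts per gene and barcode for each library, not normalized, as made by the authors with STARsolo on GRCm38, per the submitters' processing notes. The version, annotation and counting settings are not given in the sources used here, so reads of overlapping genes may not be told apart. Each library lists 6794880 barcodes and holds 89193669 (metastasis) or 69445557 (naive) UMIs. The labels' protocols name a 10x 3′ kit, so 1 UMI marks 1 molecule whatever its length.

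Kept barcodes had 1000 or more UMIs, 500 or more genes and no more than 20% mitochondrial UMIs (13937 and 14301 passed the first limit). The automatic scrublet threshold marked 0 and 855 barcodes, so the 6% with the highest scores in each library were removed instead (825 and 840). Both libraries were clustered together without collagen genes (scanpy 1.11.5, 2000 variable genes, 30 components, 15 neighbours, Leiden resolution 1), and vascular and fibroblast clusters were clustered again together. Clusters were named from 19 marker lists with 212 genes, by thresholds set after the clusters were seen: 3 markers, and the median of the list, had to pass a log2 fold of 1. The members, lists and rules were chosen with earlier results of these data known.

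UMIs were summed per class and library and scaled to the class total on the CPM scale (counts per 1000000 UMIs), with exact Poisson intervals. For ratios the exact conditional binomial interval was used and for shares the exact Clopper-Pearson interval, all at 95% and for counting error only. A sum of 0 was set to 3 UMIs over the class for a fold. Classes with at least 20 cells in each library were compared. Genes were named by a rule: the 6 highest members of a class, every member past 2-fold with at least 20 UMIs, the chain pairs, and the 3 highest and 3 lowest of each partner list, of which some are given by count. On simulated Poisson counts, the intervals held the true ratio for 96.7% of 9830 unchanged genes in endothelial-like cells and 97.0% of 6829 in mural-like cells. The intervals assume such counts, so this checks their computation only. Uneven UMIs between cells were not simulated. Python 3.11.15, numpy 2.4.6 and scipy 1.17.1 were used.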

Additional observations from a re-analysis of the deposited data

Results flagged for a closer look

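Col5a3, a minor chain of type V fibrils, was past 2-fold in opposite directions in 3 classes. Its log2 ratio of metastasis over naive was 3.34 in endothelial-like cells (77 and 1 UMIs), 5.13 in mural-like cells (234 and 2 UMIs) and -2.50 in macrophage or monocyte-like cells (18 and 3 UMIs). The difference between the classes was not tested, since each group is 1 library.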

How the results depend on the processing

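No paired analysis was possible because each group is 1 library, and for the same reason no library could be left out in turn. Precision was limited by the 98 to 204 cells of a vascular class and by naive sums of a few UMIs for most of its members. Leaving out clusters 72, 77 and 80, or barcodes found in both libraries, were alternatives chosen after seeing the data. Leiden resolution 0.5 left 3 endothelial-like cells in naive and collagen genes in the clustering left 15, so neither gave an endothelial value. Of the values that answer a comparison, 127 stayed within their spread under an alternative (for counts, close to the first count), 38 moved and 1 reversed. Of the other values, 508, 106 and 21 did. These are single genes, counts of lower members and of partner genes, and naive family shares.

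The summed endothelial log2 ratio of 2.39 was 2.56 at Leiden resolution 2 and -0.22 without the 3 clusters. The mural ratio of 2.43 was 2.19 with every cell weighted alike, 1.82 with free RNA subtracted and 0.27 without the clusters. The fibroblast ratio of 0.01 was 0.16 with at least 2000 UMIs, the ependymal ratio of 0.11 was 0.036 with cells named by their own markers and 0.025 with free RNA subtracted, and the olfactory ensheathing ratio of 0.04 was 0.17 with free RNA subtracted.

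Members higher in endothelial-like cells numbered 11, and 4 with cells named by their own markers and 0 without the clusters. In mural-like cells they numbered 15 and then 1. In fibroblast-like cells they numbered 1, and 0 with at least 50 UMIs, 2 with at least 1 UMI and 3 at 1.5-fold. Among these alternatives, the share of all genes is known only for endothelial-like cells without the clusters (2.97% of 4911 genes higher). The alternative counts therefore do not set collagens apart. The basement membrane share of endothelial-like cells in metastasis, 86.8%, was 87.3% with at most 10% mitochondrial UMIs, 87.4% with doublets kept, 93.4% with own markers and 85.0% without the clusters, and the mural share of 53.5% was 67.1% without them.

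The 56.6% of collagen UMIs in endothelial-, mural- and fibroblast-like cells of metastasis was 55.7% with at least 500 UMIs, 59.5% with 2000, 58.4% with at most 10% mitochondrial UMIs, 51.9% with doublets kept, 33.8% with own markers, 32.3% with every cell weighted alike and 7.85% without the clusters. In naive, 5.76% became 5.48%, 4.08%, 6.26%, 4.56%, 4.01% and 9.20% under the first 6 of these settings, 4.11% and 5.02% at Leiden resolutions 0.5 and 2, and 3.91% with collagen genes in the clustering. Without thinning, any collagen was found in 91.7% and 87.0% of endothelial-like cells and in 90.8% of mural-like cells of naive.

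Reversed log2 ratios of single genes were as follows, and their cause was not tested. Col1a1 in endothelial-like cells was -0.019 with at least 500 UMIs, and Col1a2 there was -1.58 with own markers. Col4a1 in choroid plexus epithelium-like cells was -0.10 with at least 2000 UMIs and -0.21 with at most 10% mitochondrial UMIs. Col4a2 in astrocyte-like cells was 1.51 with at least 2000 UMIs, 0.76 with doublets kept and 0.0040 with own markers. With free RNA subtracted, Col15a1 was -0.99 in olfactory ensheathing-like and -1.46 in oligodendrocyte-like cells, Col4a1 -0.67 in astrocyte-like cells and Col5a2 -1.75 in oligodendrocyte-like cells. For Col15a1 and Col5a2 the subtraction rests on few molecules of free RNA. Without the 3 clusters, endothelial Col1a2 was -0.36, Col4a1 -0.17, Col4a2 -0.15 and Col18a1 -1.95, and mural Col1a1 was -0.82, Col1a2 -0.21, Col5a2 -0.085, Col6a1 -1.09, Col8a1 -0.20 and Col18a1 -0.67.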
